A study of Drosophila melanogaster with 2 samples.

Results

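The cytoplasmic ribosomal protein genes of Drosophila melanogaster were described by the sequenced chromatin regions at their transcription starts. They were chosen by name: protein-coding genes whose symbol begins with RpL or RpS, which leaves out the mitochondrial ribosomal proteins. There were 92 of them, 54 of the large and 38 of the small subunit, among 13945 protein-coding genes on the 6 main chromosome arms and chromosomes. A gene was counted as having a region when the summit of a region, the base the authors marked as its highest point, lay within 500 bp of any annotated transcript start of that gene.

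The 2 libraries were biological replicates of 1 group. They came from whole pupae, aged 48 h and pooled over the sexes, of a transgenic line with GFP at the C terminus of CG8301, a zinc finger gene. Chromatin was sonicated to 200 to 800 bp. The labels contradict each other: the antibody and assay fields describe a transcription factor chromatin immunoprecipitation against CG8301, while the description calls both libraries an input control, and a separate control experiment is also listed. A region below is therefore a region of these libraries, not a site at which the fusion protein was shown to bind. The chromatin was of whole animals, so the tissue of a region is unknown, and both libraries carried the transgene.

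4 lists of regions on assembly dm6 were used. Each replicate had a list of 30000 regions, described by the authors as peaks together with background, and a pooled list of 30000 regions combined both. The shortest list, of 8005 regions, held those that passed the authors' irreproducible discovery rate (IDR) procedure, which keeps regions with reproducible ranks, and equalled the 8005 strongest pooled regions. Strength is the authors' signal value, whose scale is not stated, so it is used here as a rank within a list, with rank 1 the strongest. The sequencing depth is unknown, and with 1 group there was no contrast to test, so every comparison with other genes is a description of counts and positions.

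Ribosomal proteins assemble with ribosomal RNA into the small subunit, which reads the messenger RNA, and the large subunit, which joins amino acids. Their genes are expressed in nearly all cells, usually at a high and matched level, and in the fly the loss of 1 copy of many of them gives the Minute phenotype of slow growth and thin bristles. Many fly ribosomal protein genes start transcription at a polypyrimidine initiator, the TCT element, in place of the common initiator, and their transcripts then begin with a run of pyrimidines that growth signalling acts on.

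The sequences at which these regions peaked are shown first, because the results turn on where the summits lay. The first set holds 4 of the strongest ribosomal protein regions, in rank order. RpL32, whose transcript is a common reference in fly expression work, had its summit at -144 bp from the nearest start, where negative values are upstream, and the summit with 50 bases on each side is chr3R:30046255-30046355 on the minus strand. RpS20, of the head of the small subunit, had its summit at -141 bp, and the same stretch is chr3R:20821990-20822090 on the plus strand. For RpL24 and RpL34a the 100 bases before the nearest start, the start and the 20 bases after it are given, chr2L:13395111-13395231 and chr3R:26059247-26059367, both on the minus strand. The summit is base 106 of the RpL24 stretch and base 58 of the RpL34a stretch. Capitals mark the E-box CACGTG in RpL24 and the DNA replication element TATCGATA in RpL34a. All sequences are from the NCBI reference assembly of dm6 and are written from 5′ to 3′ on the strand of the gene.
RpL32 summit: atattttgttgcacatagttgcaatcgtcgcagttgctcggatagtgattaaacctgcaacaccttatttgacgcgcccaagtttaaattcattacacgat
RpS20 summit: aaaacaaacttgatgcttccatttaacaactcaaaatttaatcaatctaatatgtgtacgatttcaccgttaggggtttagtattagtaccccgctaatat
RpL24 start: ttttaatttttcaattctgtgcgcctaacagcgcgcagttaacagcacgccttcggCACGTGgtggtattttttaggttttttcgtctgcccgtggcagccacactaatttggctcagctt
RpL34a start: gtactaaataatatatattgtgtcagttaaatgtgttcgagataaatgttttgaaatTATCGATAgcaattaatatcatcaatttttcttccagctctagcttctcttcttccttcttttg

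The second set shows regions whose summit fell close to the start itself, a set picked after the positions were seen. Each stretch again runs from 100 bases before the start to 20 after it, so 100 bases precede the start. Capitals mark a TCT element, here TCTTT or CCTTT with its central C within 10 bases of an annotated start, and in RpS10b also the DNA replication element. The stretches are chr3R:5624374-5624494 for RpL13A, chrX:9554523-9554643 for RpS28b, chrX:19597940-19598060 for RpS10b and chrX:7934798-7934918 for RpS14b, all on the plus strand. The summits fell on base 91 in RpL13A, base 100 in RpS28b, base 104 in RpS10b and base 111 in RpS14b. The element is near the start by this definition, and in RpS28b and RpS10b it is not within 5 bases of one, the limit used for the counts below. RpL24, shown above, also has its summit near a start and no such element in its stretch. It has one at its other annotated start and is counted with the element below. RpL31, RpL30 and RpS7 are not printed.
RpL13A start: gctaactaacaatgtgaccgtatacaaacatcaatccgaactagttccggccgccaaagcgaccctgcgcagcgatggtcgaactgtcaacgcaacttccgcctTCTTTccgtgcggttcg
RpS28b start: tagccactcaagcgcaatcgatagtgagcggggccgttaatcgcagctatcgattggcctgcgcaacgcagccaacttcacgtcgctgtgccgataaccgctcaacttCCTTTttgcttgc
RpS10b start: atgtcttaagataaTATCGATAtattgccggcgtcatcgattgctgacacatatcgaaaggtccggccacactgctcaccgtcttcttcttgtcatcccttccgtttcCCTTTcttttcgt
RpS14b start: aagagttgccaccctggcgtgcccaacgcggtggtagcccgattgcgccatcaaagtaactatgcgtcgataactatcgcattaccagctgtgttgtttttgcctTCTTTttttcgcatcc

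More ribosomal protein genes had a region than protein-coding genes at large, and in the IDR list the excess lay in the weaker regions. In the IDR list, 35 of the 92 genes had a region (38.0%, exact 95% binomial interval 28.1 to 48.8), against 16.2% of all protein-coding genes. In the pooled list 57 had one (62.0%), against 31.6% of all. Among the 4002 strongest IDR regions, however, only 9 genes were represented (9.78%), beside 9.74% of all protein-coding genes, so no excess was seen there. The interval covers counting error only, and neighbouring genes can share a region.

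Both subunits were represented to a like degree. Of the large subunit 20 of 54 genes had an IDR region (37.0%) and of the small subunit 15 of 38 (39.5%). In the pooled list these counts were 33 of 54 and 24 of 38. The shares for the subunits lay well within each other's counting intervals.

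Each replicate list also held a higher share of ribosomal protein genes than of all genes. Replicate 1 had a region at 65 ribosomal protein genes (70.7%), against 37.6% of all protein-coding genes, and replicate 2 at 55 (59.8%), against 31.1%. Regions of both replicates were present at 48 genes (52.2%), against 26.0% of all. A further 17 genes had a region in replicate 1 alone, 7 in replicate 2 alone, and 20 in neither. Over all protein-coding genes these shares were 11.6%, 5.11% and 57.3%, beside 18.5%, 7.61% and 21.7% of the family. When each replicate list was cut to its 8005 strongest regions, 42 genes had one in replicate 1 (45.7%, all genes 17.4%) and 35 in replicate 2 (38.0%, all genes 16.2%), with 28 in both (30.4%, all genes 12.7%). Among the 4002 strongest regions of each, there were 9 genes in replicate 1 (9.78%, all genes 9.38%) and 13 in replicate 2 (14.1%, all genes 9.97%).

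**Figure D1:**
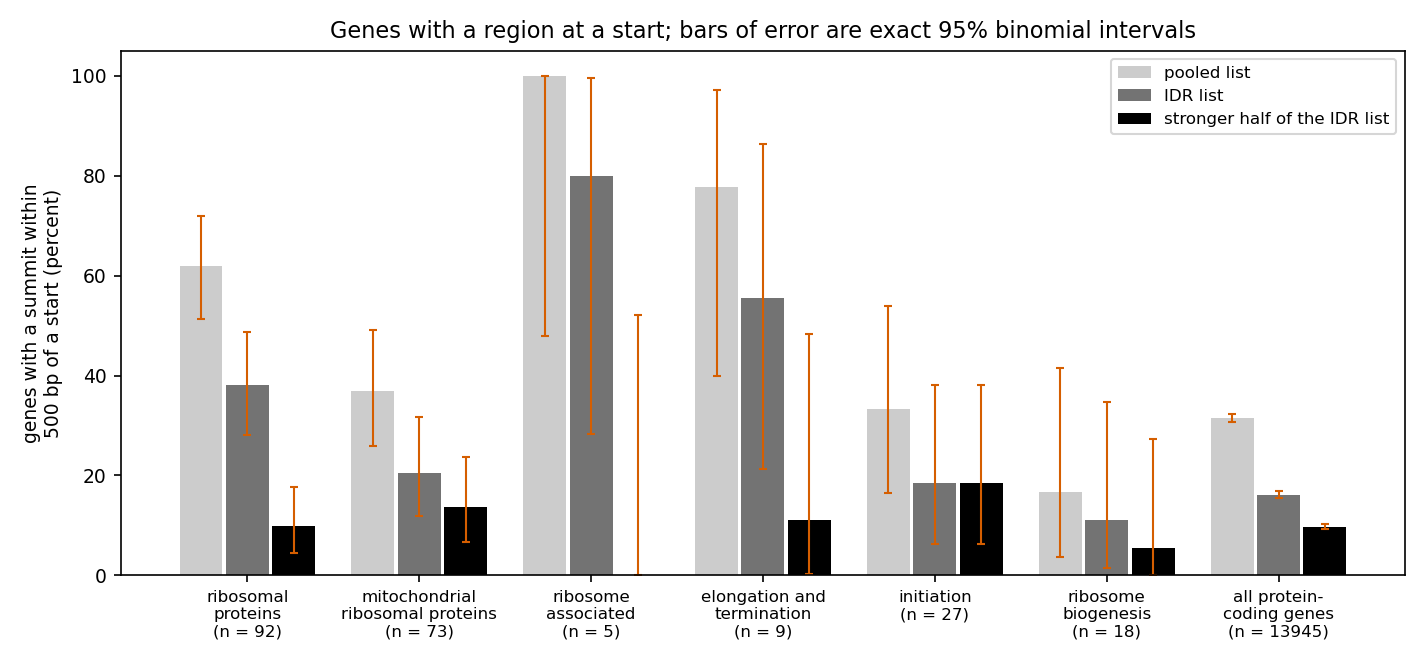
Share of genes with a summit within 500 bp of a start, in percent, for the pooled list, the IDR list and its 4002 strongest regions (black bars), by gene group, with exact 95% binomial intervals. The ribosomal protein genes stand at 62.0%, 38.0% and 9.78%, and all protein-coding genes at 31.6%, 16.2% and 9.74%.

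The number of annotated starts went with the counts, and its part in them was not tested beyond the split below. Ribosomal protein genes had 155 annotated starts, 1.68 per gene, against 1.41 over all protein-coding genes, and each start is a further chance to meet a region. Among genes with a single start, 11 of 48 ribosomal protein genes had an IDR region (22.9%), beside 10.8% of all single-start genes. Among genes with 2 or more starts the count was 24 of 44 (54.5%), beside 31.1%. The share of ribosomal protein genes was thus above that of all genes in both classes.

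By chromosome, the X carried the highest share of ribosomal protein genes with an IDR region, 9 of 14 (64.3%), while 18.5% of all X-linked genes had one. The counts were 7 of 19 on 2L (36.8%, all genes there 16.0%), 7 of 21 on 2R (33.3%, all 14.7%), 3 of 14 on 3L (21.4%, all 16.6%) and 9 of 23 on 3R (39.1%, all 15.9%). RpS3A, the only member on chromosome 4, had no IDR region and a pooled region of rank 8524. With 14 genes on the X the exact 95% interval of the X share runs from 35.1% to 87.2% and takes in the share on 3R.

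The regions at ribosomal protein genes were of moderate strength. The strongest region per gene had a median rank of 5324 in the IDR list, with quartiles 4070.5 and 6443.5 and a range of 1503 to 7922. For the other protein-coding genes with an IDR region the median rank was 3116.5. Only 9 of the 35 (25.7%) ranked 4002 or better, where 60.2% of all genes with a region did. In the 8005 strongest regions of each replicate the median rank was 5563.5 in replicate 1 and 4915 in replicate 2.

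RpL32 had the strongest region of the family, at chr3R:30046093-30046506, with rank 1503 in the IDR list, 2872 in replicate 1 and 1134 in replicate 2. Its summit lay at -144 bp in the IDR list, -153 bp in replicate 1 and -145 bp in replicate 2. RpS20 followed at chr3R:20821871-20822186, with ranks 1608, 2427 and 1390 and summits at -141, -158 and -144 bp. In the IDR list the next rank was 3086. In the replicate lists RpL34b and RpS27, described below, ranked among or near these 2 genes.

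From rank 3086 on, most summits lay near a start. Positions are given from the nearest start in each list, so in a gene with several starts those of different lists can refer to different starts. RpL7, a large-subunit protein, ranked 3086 in the IDR list, 4592 in replicate 1 and 2547 in replicate 2, with summits at -36, -17 and -37 bp. RpL24, which forms a bridge to the small subunit, ranked 3302, 2952 and 3602, with summits at +5, -11 and -3 bp. RpL30, of the large subunit, ranked 3520, 3767 and 3481 with summits at +3, +11 and -8 bp. On the chromosome, the summits of the 2 replicates lay 20 bp apart at RpL7, 31 bp apart at RpL24 and 19 bp apart at RpL30.

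RpL34a, of the large subunit, ranked 3338 in the IDR list, 4714 in replicate 1 and 2814 in replicate 2, with summits at -43, -34 and -88 bp. RpS4 ranked 3941, 3533 and 3786, with summits at +16, +87 and -20 bp. RpS10b, the widely expressed copy of its pair, ranked 4241, 3298 and 5162 with summits at +3, +2 and +11 bp. Of these 3 genes, RpS10b differed least in position between the lists, and the summits of RpS4 fell on both sides of the start.

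At other genes of these ranks, the summits of the 2 replicates lay 34 bp apart (RpS25) and 108 bp apart (RpL13) on the chromosome. RpS25 ranked 4193 in the IDR list, 5698 in replicate 1 and 3512 in replicate 2, with summits at -43, -9 and -43 bp. RpL13 ranked 3959, 4782 and 3135 with summits at -125, +5 and -103 bp. The listed summits of RpL13 thus lay on different sides of the start in the 2 replicates. Both were midpoints of regions with the most common width of their list, 440 and 364 bp, so they need not be the highest points.

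RpL23, whose protein lies on the face of the large subunit that meets the small one, ranked 3503 in the IDR list, 3292 in replicate 1 and 3857 in replicate 2. Its summits lay at -358, -490 and -359 bp, the most distant IDR position of the family. The IDR summit is closer to the start of the divergent gene CG13531, from which it lies at -198 bp, than to that of RpL23.

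The other 23 genes with an IDR region ranked between 4317 and 7922. Those of the large subunit, in rank order, were RpL31, RpL19, RpL13A, RpLP0, RpL8, RpL22, RpL7A, RpL12, RpL17, RpLP1, RpL35A, RpL35 and RpL27A. Those of the small subunit included RpS23, RpS7, RpS16, RpS15, RpS28b, RpS14b, RpS29, RpS19a and RpS21. RpL13A, RpS28b, RpL35A and RpL35 had no region at a start in the replicate 2 list at all, although each had one in replicate 1, of rank 6077, 5376, 6433 and 9977.

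The stalk of the large subunit, which recruits the elongation factors, consists of RpLP0 with RpLP1 and RpLP2. RpLP0 had 2 IDR regions, the stronger of rank 5178 at -14 bp, and ranked 5615 in replicate 1 and 4433 in replicate 2. In replicate 1 its strongest region was the upstream one, with the summit at -473 bp. RpLP1 ranked 6985, 6374 and 7902, with summits at +26, +28 and -35 bp. RpLP2 had no IDR region and no region in replicate 1, and ranked 15283 in the pooled list and 11531 in replicate 2. RpL12, which sits at the base of the stalk, ranked 6384, 9951 and 5647 with summits at -37, -5 and +36 bp. The IDR and replicate 2 summits of RpL12 were 3 bp apart on the chromosome, and their positions refer to different starts.

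RpS23, which reaches into the decoding centre, ranked 5324, 7690 and 4657 with summits at +80, +19 and +41 bp. RpS15, of the small-subunit head, ranked 6367, 4952 and 7744 with summits at +86, +83 and +38 bp. Both peaked downstream of the nearest start in all 3 lists. RpS3, of the messenger RNA entry channel, reached only the pooled list, at rank 9005, with summits at +107 bp there, +146 bp in replicate 1 and +76 bp in replicate 2.

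**Figure D2:**
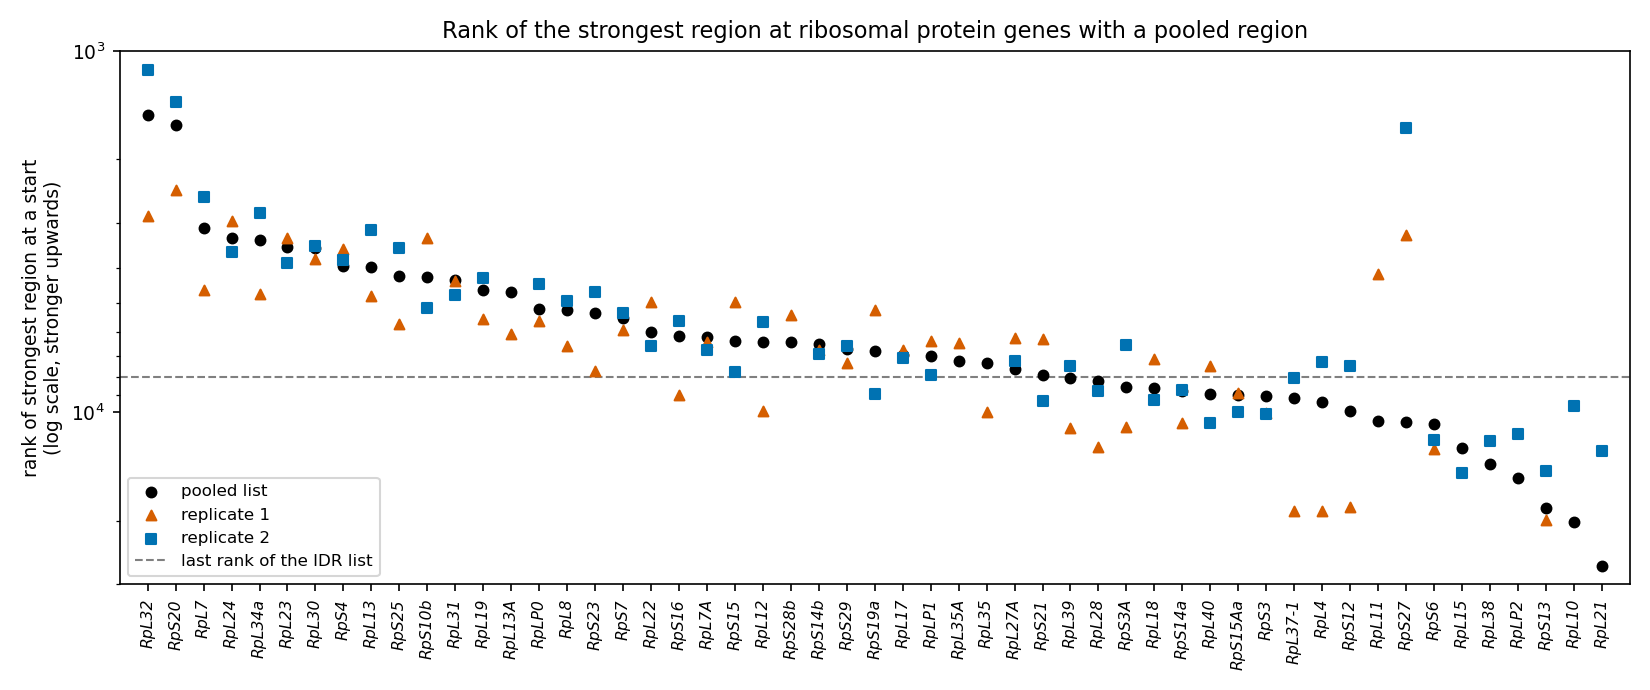
Rank of the strongest region within 500 bp of a start (log axis, stronger upwards) for 53 of the 57 ribosomal protein genes with a pooled region, in the pooled list (circles), replicate 1 (triangles) and replicate 2 (squares), with the last IDR rank, 8005, as a dashed line. RpL32 and RpS20 lead the order, and RpS27 has ranks of 3237 and 1640 in the replicates but 10651 in the pooled list.

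The IDR summits of ribosomal protein genes lay on the transcription start, where those of other genes lay upstream. The median position of the 35 strongest summits was -1 bp, with quartiles -36.5 and 22 bp and a range of -358 to +114 bp. For the 2222 other protein-coding genes with an IDR region the median was -163 bp, with quartiles -254 and -85 bp. Of the ribosomal protein summits 18 were upstream and 17 downstream, while for the other genes 1822 were upstream and 399 downstream.

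Counted by distance, 14 of the 35 summits (40.0%) were within 25 bp of a start, against 3.63% of all genes with an IDR region. Within 50 bp there were 23 (65.7%), against 7.44%, and within 100 bp there were 29 (82.9%), against 18.8%. These distances were chosen after the positions had been seen. The subunits differed little: 15 of 20 large-subunit and 8 of 15 small-subunit summits were within 50 bp, with medians of -17 and +10 bp.

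**Figure D3:**
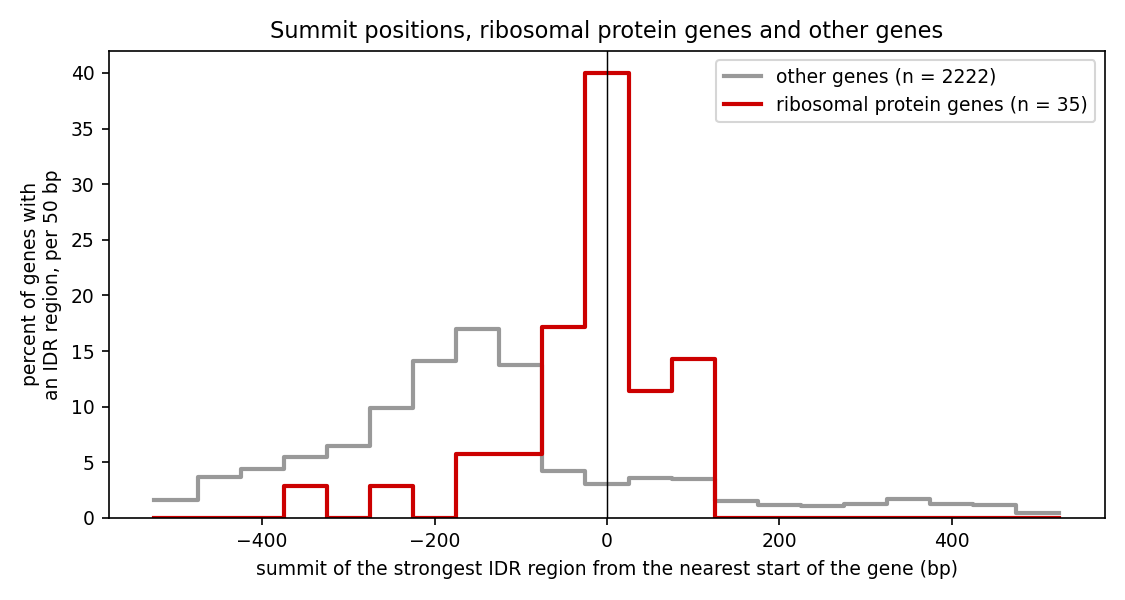
Position of the strongest IDR summit from the nearest start of its gene, in bp, as the percent of genes per 50 bp, for 35 ribosomal protein genes (red) and 2222 other protein-coding genes (grey). The bin centred on the start holds 40.0% of the ribosomal protein genes, and the other genes gather upstream around their median of -163 bp.

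The same position was seen in each replicate on its own. Among the 8005 strongest regions of replicate 1, the 42 ribosomal protein summits had a median of 3.5 bp and 27 of them (64.3%) were within 50 bp, against 7.92% of all genes with such a region. In replicate 2 the 35 summits had a median of -25 bp, with 24 (68.6%) within 50 bp, against 7.93%. The shift between the replicate medians was small beside the distance to the other genes' median. In 14 of the 35 IDR regions (40.0%) the summit was the midpoint of the region, beside 17.1% of all IDR regions, and their median width was 281 bp. In the whole replicate lists the summit was the midpoint in 84.5% of regions of replicate 1 and 80.3% of replicate 2. The most common widths there were 440 and 364 bp, which many of the ribosomal protein regions had. A summit of such a region can be the centre of a fixed width. The part of midpoint summits in the positions was not tested.

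Weak regions sat closer to a start in all genes, but not to this extent. For IDR ranks above 4002, 18 of 26 ribosomal protein summits (69.2%) were within 50 bp, with a median of 2.5 bp. Of the 873 other genes of the same ranks 87 were (9.97%), with a median of -151 bp. For ranks of 4002 or better, 5 of 9 ribosomal protein summits were within 50 bp, beside 4.30% of the other genes. When each region was given only to the protein-coding gene with the nearest start, 33 ribosomal protein genes kept a region (35.9%, all genes 13.2%) and 23 of them (69.7%) had the summit within 50 bp.

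**Figure D4:**
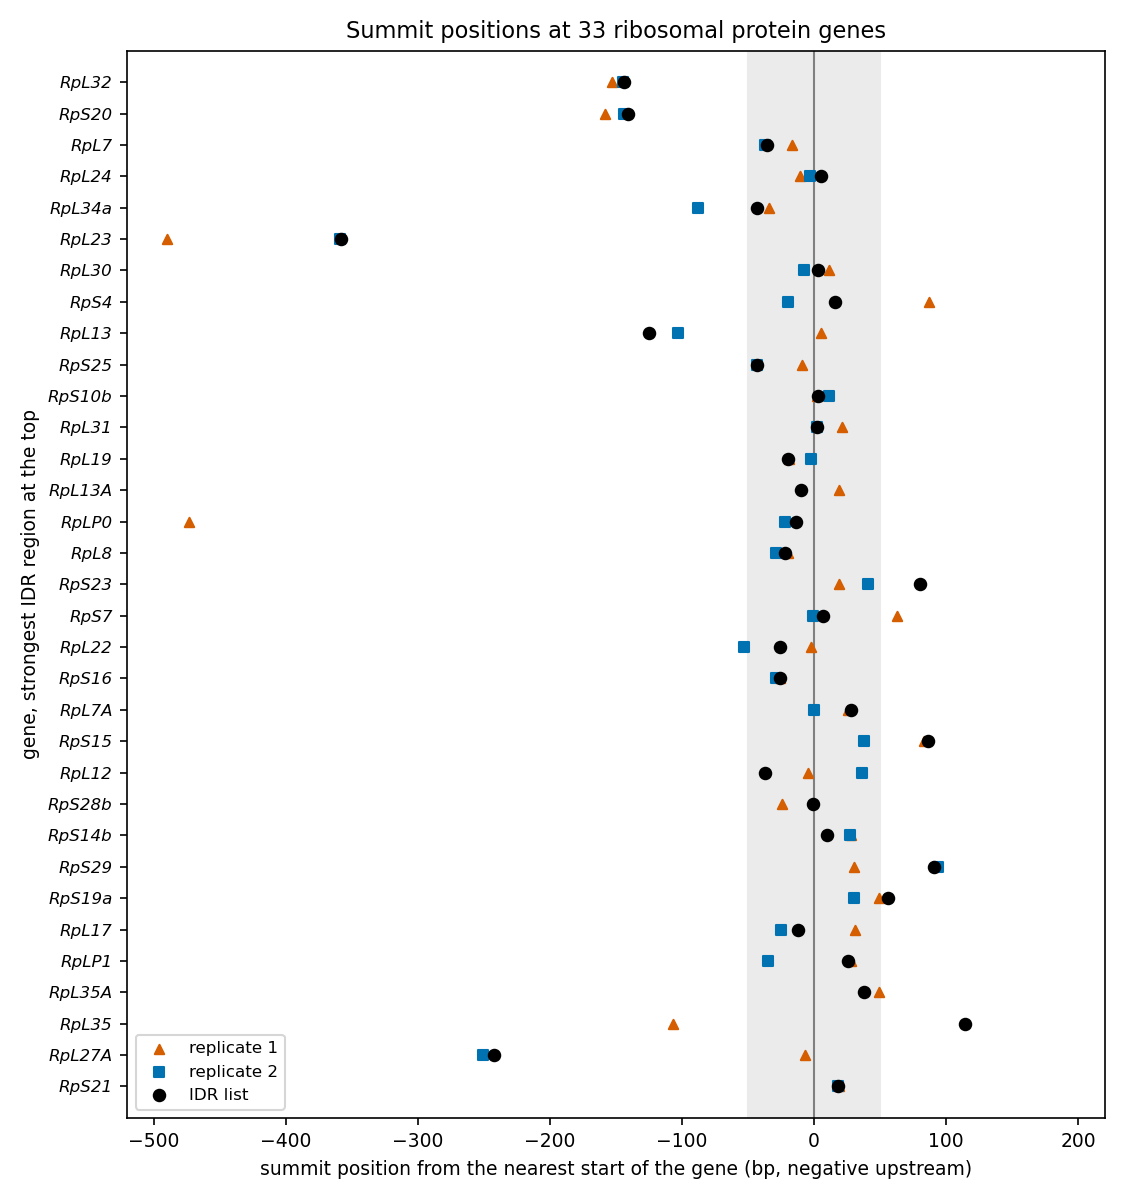
Position of the strongest summit from the nearest start, in bp with negative values upstream, for 33 of the 35 ribosomal protein genes with an IDR region, in the IDR list (circles), replicate 1 (triangles) and replicate 2 (squares), ordered by IDR rank. The nearest start was taken in each list separately. Most points lie in the shaded 50 bp on either side of the start, while RpL32, RpS20 and RpL23 lie upstream in all 3 lists.

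Of the 35 regions, 14 (40.0%) also lay at a start of another protein-coding gene. This was close to the 42.3% of all genes with an IDR region, a count not limited to divergent neighbours. In all 14 the other gene lay on the opposite strand. The ribosomal protein start was the nearer one in 12, among them RpL32 with CG7943, RpS20 with CG17271 and RpL7 with Ripalpha. The exceptions were RpL23, described above, and RpL13, whose summit lay at -125 bp from RpL13 and +41 bp from Dref, the gene of the factor that binds the DNA replication element. Regions of this kind cannot be ascribed to one gene of the pair.

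The TCT element was common at the starts. Here it was counted as TCTTT or CCTTT on the transcript strand with the central C within 5 bases of an annotated start, and 56 of the 92 genes had it (60.9%), against 3.31% of all protein-coding genes. The C lay most often 4 bases after the start, in 17 of them. Of the 35 genes with an IDR region 24 had the element (68.6%), and of the 57 without one 32 had it (56.1%). Among the other genes with an IDR region, the summit was within 50 bp of a start at 14 of 95 with a TCT element (14.7%) and at 131 of 2127 without one (6.16%). For ranks above 4002 these shares were 25.8% and 9.38%. Among the ribosomal protein genes with an IDR region of any rank, the summit was within 50 bp at 15 of 24 with the element (62.5%). Without it the count was 8 of 11 (72.7%). The class without the element depends on the limit of 5 bases. Within 10 bases 81.5% of the 92 genes had it, and RpS28b and RpS10b, printed above with an element, are counted here as without it.

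Other promoter motifs were counted on both strands from 250 bases before to 50 after any start. The DNA replication element TATCGATA was in 30.4% of ribosomal protein promoters, against 10.2% of all. It was in 20% of those with an IDR region and 36.8% of those without. The E-box CACGTG, which Myc and related factors bind, was in 16.3%, against 5.30% of all. The Motif 1 core GGTCACAC was in 16.3%, against 8.71%, and TATAAA in 51.1%, against 51.2%.

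The repeat GAGAG, part of the sequence that GAGA factor binds, was less common here than in other promoters. It was in 20.7% of ribosomal protein promoters and in 25.7% of those with an IDR region. Over all protein-coding genes it was in 36.3%, and over those with an IDR region in 51.4%. None of the motifs counted contains another. A match is a description of letters and not of a bound site.

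The pooled list reached 22 further ribosomal protein genes below the last IDR rank (15.4% of all genes were of this kind). In rank order from 8040 to 26704 they included RpL39, RpL28, RpS3A, RpL18, RpS14a, RpL40, RpS15Aa, RpS3, RpL37-1, RpL4, RpS12, RpL11, RpS27, RpS6, RpL15, RpL38, RpLP2, RpS13, RpL10 and RpL21. RpL40, made as a fusion with ubiquitin, ranked 8899, with summits at +127, +131 and +119 bp in the pooled and replicate lists. RpS6, the classic target of S6 kinase, ranked 10828, 12647 and 11920 with summits at +17, +58 and +25 bp.

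The border of the IDR list fell within the family, so its membership is in part a matter of rank. RpL27A at rank 7622 and RpS21 at 7922 were the last inside, and RpL39 at 8040 and RpL28 at 8196 the first outside. For the 500 bp window, RpL23 at -358 bp and RpL27A at -242 bp were the outermost inside. RpL34b, with an IDR summit at +879 bp (rank 3958), lay outside.

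2 genes had strong regions in both replicates and no IDR region at a start. RpL34b, the partner of RpL34a, had a region of rank 2298 in replicate 1 and 1212 in replicate 2, with summits at -243 and -198 bp. Its start had no pooled region at all, and the pooled list held only the region of rank 3958 at chr3R:9400034-9400266. That region overlapped the 3′ end of the gene, and its summit lay beyond that end. RpS27 ranked 3237 and 1640 in the replicates, with summits at -170 and -130 bp, and its only pooled region ranked 10651 and lay at +492 bp.

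Such a case was rare in the lists. Over all protein-coding genes 0.28% had regions among the 8005 strongest in each replicate but no IDR region, and 0.115% had no pooled region either. Of 6560 regions among the strongest of replicate 1 that overlapped one of replicate 2, 23 (0.351%) overlapped no pooled region. In replicate rank RpL34b would stand at the head of the family together with RpL32 and RpS20, so an account from the IDR list alone leaves it out. The cause was not tested.

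Of the 35 genes with no pooled region, 15 had a region in a replicate list (42.9%), against 16.9% of all protein-coding genes with no pooled region. For 12 of them this was replicate 1 alone, with ranks of 4602 for RpL27, 5109 for RpS18, 5741 for RpL3, 6696 for RpS27A, 7209 for RpS9 and 8314 for RpL23A. RpL37A, RpL36, RpL7-like, RpS2 and RpL10Ab followed between 9425 and 14221. RpL5, which with RpL11 binds the short RNA of the large subunit, had a region in replicate 2 alone, of rank 26194. RpL11 itself ranked 4155 in replicate 1 and 10570 in the pooled list, with no region in replicate 2.

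The remaining 20 genes (21.7%) had no region at a start in any of the 4 lists, where 56.8% of all protein-coding genes had none. They were RpL6, RpL9, RpL14, RpL26, RpL29, RpL36A, RpL41, RpS24, RpS26, RpS30, RpL10Aa, RpL22-like, RpL24-like, RpL37-2, RpLP0-like, RpS10a, RpS15Ab, RpS19b, RpS28a and RpS28-like. The first 10 belong to none of the families of related genes described next, and the other 10 do. A missing region says only that none was listed within 500 bp of a start.

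Within families of related genes, no more than 1 copy had an IDR region. In 13 such families, with 27 genes, 10 families had exactly 1 copy with an IDR region, 3 had none and 0 had more than 1. Of all ribosomal protein genes 38.0% had an IDR region, and of all protein-coding genes 16.2%. The same count was not made for families of other genes, so it is not shown to be particular to these copies. The copies with a region included RpL7, RpL22, RpL24, RpL34a, RpLP0, RpS10b, RpS14b, RpS19a and RpS28b, and their partners without one included RpL7-like, RpL22-like, RpL24-like, RpL34b, RpLP0-like, RpS10a, RpS14a, RpS19b, RpS28a and RpS28-like. RpL22-like, RpS10a and RpS19b are known for expression mainly in the germ line or gonads, and RpL24-like, RpL7-like and RpLP0-like resemble yeast factors that act in ribosome assembly. The families are a grouping by symbol and not independent of how genes were named.

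In the RpL22 and RpS19 pairs the copy without an IDR region had few or no regions. RpL22 ranked 6000 in the IDR list, 4955 in replicate 1 and 6583 in replicate 2, and RpL22-like had no region in any list. RpS19a ranked 6781, 5220 and 8896, and RpS19b had no region in any list. In the RpL34 pair the order of the replicates was the opposite of the IDR list: RpL34b ranked 2298 and 1212 in replicates 1 and 2, ahead of RpL34a at 4714 and 2814. Both RpS14 copies had a pooled region: RpS14a and RpS14b, neighbouring copies on the X, ranked 8751 and 6489 in the pooled list, 10750 and 6748 in replicate 1, and 8714 and 6919 in replicate 2.

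The other 3 families had no IDR region. RpL37-1 ranked 9164 in the pooled list and RpL37-2 had no region. RpS15Aa ranked 8949 in the pooled list, 8889 in replicate 1 and 9994 in replicate 2, and RpS15Ab had no region. RpL10Ab had only a replicate 1 region of rank 14221, and RpL10Aa none. Near-identical copies can share reads, and how the authors placed such reads is not given in the sources used here.

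6 ribosomal protein genes are annotated without an intron: RpLP2, RpL10Aa, RpL37-2, RpS10a, RpS15Ab and RpS28a. None of these 6 had an IDR region (exact 95% interval 0 to 45.9%), beside 6.82% of all intronless protein-coding genes. RpLP2 had a pooled region, 1 of 6 (16.7%), beside 16.0% of all intronless genes. With 6 genes, neither share can be told from that of intronless genes at large. Of the 86 genes with an intron 35 had an IDR region (40.7%), beside 17.9% of all genes with an intron.

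Other genes of translation are read against the 16.2% of all protein-coding genes with an IDR region. Of 5 genes of ribosome-associated proteins 4 had one (80.0%): Nacalpha, of the nascent-chain complex, ranked 4782 at +1 bp, Rack1, a scaffold on the small subunit, 4609 at +32 bp, sta, a small-subunit protein with another name, 6721 at +45 bp, and Tctp 6770 at -153 bp. Of these only Tctp peaked more than 50 bp from a start. bic, the partner of Nacalpha, had no IDR region.

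Of 9 elongation and termination genes 5 had an IDR region (55.6%). eEF1gamma ranked 2222 with its summit at -7 bp, eEF5 6482 at +39 bp, and eEF2, the translocase, 6021 at +60 bp. The release factors eRF3 and eRF1 ranked 5403 and 7499, at -82 and -99 bp. Of 27 initiation genes 5 had one (18.5%, near the share of all genes), among them eIF6 at rank 87 and -107 bp and eIF5B at rank 2816 and -166 bp. Of 18 genes listed under ribosome biogenesis 2 had one (11.1%), Nopp140 at rank 4370 and Rrp1 at rank 1089. In the fly Rrp1 is a gene of DNA repair and does not belong to this group. All counts over these lists include it. Over the 59 genes of these lists, 16 had an IDR region (27.1%), with a median summit of -44.5 bp, and 5 of the 16 were within 50 bp.

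At mitochondrial ribosomal protein genes the summits lay upstream. Of 73 genes 15 had an IDR region (20.5%), beside the 16.2% of all protein-coding genes. Their summits had a median of -172 bp, close to that of other genes, and 0 of 15 were within 50 bp of a start. Many of these regions lay nearer to the start of another gene. Given only to the protein-coding gene with the nearest start, regions remained at 6 genes, with a median of -152 bp and 0 within 50 bp. The TCT element was at 2.74% of the 73 genes, beside 15.3% of the other translation genes.

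The replicates placed the ribosomal protein regions about as closely as those of other genes. Over the 48 genes in both replicate lists the median distance between the replicates' summits on the chromosome was 38 bp, beside 42.5 bp over the 3622 protein-coding genes in both, and the largest was 676 bp, at RpLP0. Spearman's rho between the ranks was 0.70 for the 48 genes and 0.84 over all 3622. The points are genes of the same 2 libraries and span a narrower range of ranks in the ribosomal protein genes. Of the 48 genes 29 ranked better in replicate 2 (60.4%), beside 57.7% of all.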

How the data were processed

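Per the labels, 2 chromatin libraries of CG8301-GFP pupae were sequenced. The authors deposited 4 region lists on dm6, with a signal value per region (column scale not stated) and, as another value, a summit offset in bp. Per the deposited text files, the replicate and pooled lists were derived from alignments and a control file, and the IDR list from those lists. For the aligner, peak caller, control normalisation and thresholds, nothing is given in the sources used, and a different threshold would change which regions are listed. Read depth is unknown.

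Regions were ranked by signal within each list and matched to transcript starts of protein-coding genes of Ensembl release 115, leaving out 41 genes outside the 6 chromosome arms and chromosomes. The strongest region within 500 bp was taken per gene, and its position measured from the nearest start in each list. Matching was tested on simulated regions planted at known distances. Motifs were searched in the NCBI assembly. Python 3.11.15, NumPy 2.4.6, pandas 2.3.3, SciPy 1.17.1 and Matplotlib 3.10.9 were used. Shares have exact 95% binomial intervals for counting error only.

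Members and lists were chosen with earlier results of these data known. Values in all lists were given for the 12 best IDR ranks and the related gene copies, and every member was counted. The values of 6 members are not reported here, although the counts and medians include them. Of the members with the 6 best IDR ranks, sequences were shown for those outside arm 2R, except 1 left out for its UTR length. A second set of sequences was chosen after its values were seen. Alternatives were other windows, the start itself, the most upstream start, stronger regions, single replicates and motif windows. No test was run, because the design has 1 group of 2 replicates. Whether the replicates came from separate animals or cultures is known only as the label biological replicate.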

Additional observations from a re-analysis of the deposited data

How the results depend on the processing

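The count of ribosomal protein genes with an IDR region stayed between 33 and 38 across windows of 250 and 1000 bp. The same range held for regions covering a start and for the most upstream start alone. With 1 replicate left out, the 8005 strongest regions of the other stood in for the IDR list. The count there was 42 in replicate 1 and 35 in replicate 2, and these are not IDR regions. In the 4002 strongest IDR regions the count fell to 9. There the share was 9.78%, beside 9.74% of all genes, the median rank 3338, the median position -43 bp, the count of shared regions 6 and the count of other translation genes 7. The median position was 26 bp from the most upstream start alone. It was 3.5 bp in the 8005 strongest regions of replicate 1 and -25 bp in those of replicate 2. The count of regions shared with another gene was 8 within 250 bp, 28 within 1000 bp and 3 where the region had to cover a start of each gene, and that of mitochondrial ribosomal protein genes fell from 15 to 6 where the region had to cover the start. Genes with a region in both replicates numbered 28 among the strongest 8005. In the 50 bases on each side of the summit, a shorter window and for genes with an IDR region only, the TCT element was in 37.1% of ribosomal protein genes (all genes 1.06%), TATAAA in 8.57% (24.6%), TATCGATA in 8.57% (1.11%), CACGTG in 8.57% (0.665%), GGTCACAC in 8.57% (0.532%) and GAGAG in 5.71% (10%). The TCT element was counted only near a start, so its share at the summit depends on how many summits lay there. Within 50 bp of a start lay 65.7% of the ribosomal protein summits and 7.44% of those of all genes with an IDR region. The part of this in the shares was not tested. With the TCT element allowed within 10 bases of a start, a choice made after seeing the data, 81.5% had it, beside 6.35% of all genes. Giving each region only to the nearest gene was also chosen after seeing the data. No paired analysis was possible because the 2 replicates form 1 group and no result comes from a test. Read depth was not analysed here, and the pooled and replicate lists hold background by the authors' description, so a region there outside the IDR list cannot be told from background.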
